A study of Mus musculus with 30 samples.

Results

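The small nucleolar, Cajal body and catalytic RNAs counted in mouse dorsal root ganglia (DRG) and hind paw are described here. They were chosen by name alone: every gene symbol that begins with Snord, Snora, Scarna, Rnu or Rny, and Rmrp, Rpph1 and Terc, whatever its level. The rule gave 120 of 22609 counted genes, namely 69 Snord, 36 Snora, 9 Scarna and 3 Rnu genes (Rnu11, Rnu12 and Rnu73b) and the 3 catalytic or telomerase RNAs, while no symbol began with Rny. A read was counted for 110 of them in at least 1 library. The 10 with none were Snora24, Snora26, Snora35, Snord116, Snord116l1, Snord116l2, Snord1a, Snord45c, Snord7 and Snord93.

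Small nucleolar RNAs guide chemical changes on ribosomal and spliceosomal RNA. Box C/D RNAs (Snord) sit in a particle with fibrillarin and guide ribose methylation, and box H/ACA RNAs (Snora) sit with dyskerin and guide pseudouridylation. Small Cajal body RNAs (Scarna) do the same for spliceosomal RNAs. In mammals most snoRNAs are cut from introns of host genes, many of which encode ribosomal proteins or are noncoding RNAs such as Gas5. Rpph1 is the RNA of RNase P, which trims the 5′ end of tRNA precursors, and Rmrp is the related RNA of RNase MRP, which acts in ribosomal RNA processing. Terc is the RNA template of telomerase, and Rnu11 and Rnu12 are the U11 and U12 RNAs of the minor spliceosome. Mature forms of these RNAs carry no long poly(A) tail.

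The 30 libraries formed 10 groups of 3, from C57BL/6J mice aged 10 to 12 weeks. Prolactin (PRL, 1 µg) or vehicle (Veh) was injected into the hind paw. Female PRL, female Veh, male PRL and male Veh mice each gave 3 DRG and 3 paw libraries, made from 500 ng of RNA with a stranded kit that removes ribosomal RNA. Female mice also gave 3 DRG and 3 paw libraries labelled PRL_Sh, which were made with a stranded mRNA kit. What Sh stands for is not stated, and since no other arm used that kit, the kit and the PRL_Sh arm cannot be told apart. No label ties a library to the single injection or to the 12 days of injections that the protocol describes. No label says that replicates came from separate animals, so p-values measure the spread between these libraries, which may be technical. By label 18 libraries came from females and 12 from males, the reverse of the numbers in the series text.

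Gene reads, the reads assigned to any gene, ran from 8.99 M to 13.3 M (M for mega) in the 12 DRG libraries made with rRNA removal. The range was 6.87 M to 13.5 M in the 12 such paw libraries and 21.8 M to 26.5 M in PRL_Sh. The tissue labels held: in Veh libraries 9 of 9 neuron markers and 6 of 6 glia markers were higher in DRG, and 7 of 7 keratinocyte and 9 of 9 muscle markers were higher in paw. Some libraries stood apart in the RNAs described here. The ratio of Rpph1 to Scarna10 reads was 121 in Female paw PRL 1, 133 in Male paw Veh 1 and 69.3 in Male paw Veh 2, against 23.1 to 35.8 in the other 21 rRNA-depleted libraries. Male paw Veh 2 also had the lowest share of reads in genes (13.6%, against 22.3% or more in the other rRNA-depleted libraries). Female paw PRL_Sh 3 had 9.77 counts of Rpph1 per 1 M gene reads (CPM), against 1.59 and 1.61 in the other PRL_Sh paw libraries. Calls and sums that changed without these libraries are given both ways beside the result.

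Sequences are shown for the RNAs on which the results turn, from GENCODE vM21 on GRCm38 (the reads were counted on mm9), as DNA letters. The first set holds RNAs that were at least 10-fold lower in the mRNA-kit libraries, several of which also enter the tissue and PRL comparisons. Rmrp (chr4:43492788-43493058, minus strand) lies in no host gene. Scarna13 (chr12:105031075-105031349, minus strand) lies in an intron of Snhg10, Snord17 (chr2:144265979-144266216, minus strand) in an intron of Snx5, and Snord15a (chr7:99482785-99482932, minus strand) in an intron of Rps3. Rnu12 (chr15:83149644-83149794, plus strand) has no host. For Terc (chr3:96414437-96414859, minus strand, 423 nt) the first 100 bases are shown. Capitals mark the box C motif TGATGA and the box D motif CTGA of the Snord RNAs, and in Terc the motif CTAACCCT at bases 29 to 36, which is complementary to the telomere repeat and was found in no other of the 119 sequences.
Rmrp: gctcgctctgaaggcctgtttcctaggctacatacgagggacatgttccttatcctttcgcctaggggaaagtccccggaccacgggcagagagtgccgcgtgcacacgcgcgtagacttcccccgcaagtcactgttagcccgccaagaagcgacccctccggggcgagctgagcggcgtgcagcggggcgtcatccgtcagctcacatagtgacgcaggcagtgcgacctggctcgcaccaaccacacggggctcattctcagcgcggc
Scarna13: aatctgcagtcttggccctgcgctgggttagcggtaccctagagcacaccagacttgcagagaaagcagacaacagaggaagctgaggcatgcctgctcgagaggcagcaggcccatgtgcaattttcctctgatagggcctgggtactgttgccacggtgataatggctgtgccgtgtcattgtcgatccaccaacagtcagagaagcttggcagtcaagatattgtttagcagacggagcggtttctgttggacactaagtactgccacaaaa
Snord17: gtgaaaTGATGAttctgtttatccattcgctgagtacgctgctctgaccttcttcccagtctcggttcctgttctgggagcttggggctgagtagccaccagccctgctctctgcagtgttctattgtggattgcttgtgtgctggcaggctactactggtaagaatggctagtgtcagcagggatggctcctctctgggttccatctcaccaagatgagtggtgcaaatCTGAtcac
Snord15a: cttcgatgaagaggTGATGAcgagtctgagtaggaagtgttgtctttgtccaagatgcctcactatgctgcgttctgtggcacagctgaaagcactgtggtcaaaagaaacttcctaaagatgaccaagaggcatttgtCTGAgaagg
Rnu12: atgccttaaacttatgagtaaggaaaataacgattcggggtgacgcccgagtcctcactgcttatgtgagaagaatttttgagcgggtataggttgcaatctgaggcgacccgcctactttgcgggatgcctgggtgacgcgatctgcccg
Terc: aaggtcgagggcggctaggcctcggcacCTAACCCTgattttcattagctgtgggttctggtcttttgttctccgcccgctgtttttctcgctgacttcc

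The second set was equal or higher in the mRNA-kit libraries, or differed most between tissues. Snora65 (chr2:32963291-32963420, plus strand), Snord12 (chr2:167065276-167065365, plus strand) and Snord96a (chr11:48802032-48802112, plus strand) each lie within an annotated exon of a host transcript, of Rpl12, Zfas1 and Rack1 in turn. Snord64 (chr7:59978808-59978874, minus strand) lies within an exon of the transcript Gm38393. Capitals mark boxes C and D, and in Snora65 the ACA that stands 3 bases before the 3′ end.
Snora65: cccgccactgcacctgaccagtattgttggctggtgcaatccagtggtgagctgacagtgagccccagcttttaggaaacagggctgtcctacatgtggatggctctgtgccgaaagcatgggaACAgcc
Snord12: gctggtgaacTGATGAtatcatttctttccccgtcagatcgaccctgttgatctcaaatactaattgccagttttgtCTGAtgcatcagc
Snord96a: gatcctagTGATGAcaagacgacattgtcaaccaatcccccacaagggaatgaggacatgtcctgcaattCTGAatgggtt
Snord64: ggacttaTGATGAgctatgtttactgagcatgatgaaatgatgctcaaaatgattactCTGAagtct

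On the sense strand, TGATGA was found in the first 20 bases of 43 of 68 Snord sequences and of 0 of 36 Snora sequences. CTGA was found in the last 20 bases of 66 of 68 Snord and 4 of 36 Snora sequences. An ACA 3 bases before the end was found in 30 of 36 Snora and 0 of 68 Snord sequences. Rnu73b, named with the U RNAs, held both boxes in a 71 nt sequence that GENCODE classes as a snoRNA, within an intron of Rps3a. By GENCODE models, 58 of the 120 genes lay only in introns of a host, 42 within an exon of a host transcript and 8 touched such an exon, while 11 had no host on their strand and 1 (Snord116) had no match.

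Rpph1 and Rmrp made up nearly all of the signal. Of 1094305 reads over the 30 libraries, 92.2% belonged to the catalytic group, 4.24% to Scarna, 2.07% to Snord, 1.42% to Snora and 0.0725% to Rnu genes. In the 12 rRNA-depleted DRG libraries Rpph1 ran from 1297 to 1858 CPM with a median of 1604, and Rmrp from 995.1 to 1369 CPM with a median of 1179. In the 12 rRNA-depleted paw libraries Rpph1 ran from 1969 to 4712 CPM with a median of 2610, and Rmrp from 1326 to 2863 CPM with a median of 2132. Rpph1 exceeded Rmrp in reads in each of these 24 libraries, by 1.05 to 2.01 times.

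Per kilobase of RNA length in the GENCODE models, the mean levels in rRNA-depleted DRG were 4993 CPM per kb for Rpph1, 4372 for Rmrp, 188 for Scarna2, 168 for Scarna10 and 108 for Scarna13. Scarna2 and Scarna10 guide changes on spliceosomal RNAs, and on the CPM scale each was above every Snord and Snora RNA in mean DRG level. In rRNA-depleted paw the order below Rpph1 (8985 CPM per kb) and Rmrp (7691) was Scarna9 (248), Scarna10 (238), Snord22 (187) and Scarna2 (138). This order depends on the gene model: Scarna2 is 414 nt in GENCODE and 61 nt in RefSeq, Scarna10 325 and 71 nt, and Scarna9 70 and 42 nt, while Rpph1, Rmrp, Scarna13 and Snord22 differ by at most 6 nt. By RefSeq lengths the levels per kb in DRG were 4900 for Rpph1, 4308 for Rmrp, 1278 for Scarna2, 767 for Scarna10, 135 for Scarna9 and 108 for Scarna13, and in paw Scarna10 (1091) and Scarna2 (934) stood above Scarna9 (414) and Snord22 (187). Rpph1 and Rmrp stood first by both. The CPM ranges of Scarna2 (23.98 to 82.0) and Scarna10 (28.4 to 118) overlapped across the paw libraries. Within libraries, Scarna10 had more reads than Scarna2 in each rRNA-depleted paw library except Female paw PRL 1 (437 against 603 reads). Terc was scarce, with 0.207 to 1.16 CPM in rRNA-depleted DRG. Of the 120 genes, 100 averaged under 1 CPM in rRNA-depleted DRG and 73 in rRNA-depleted paw.

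**Figure D1:**
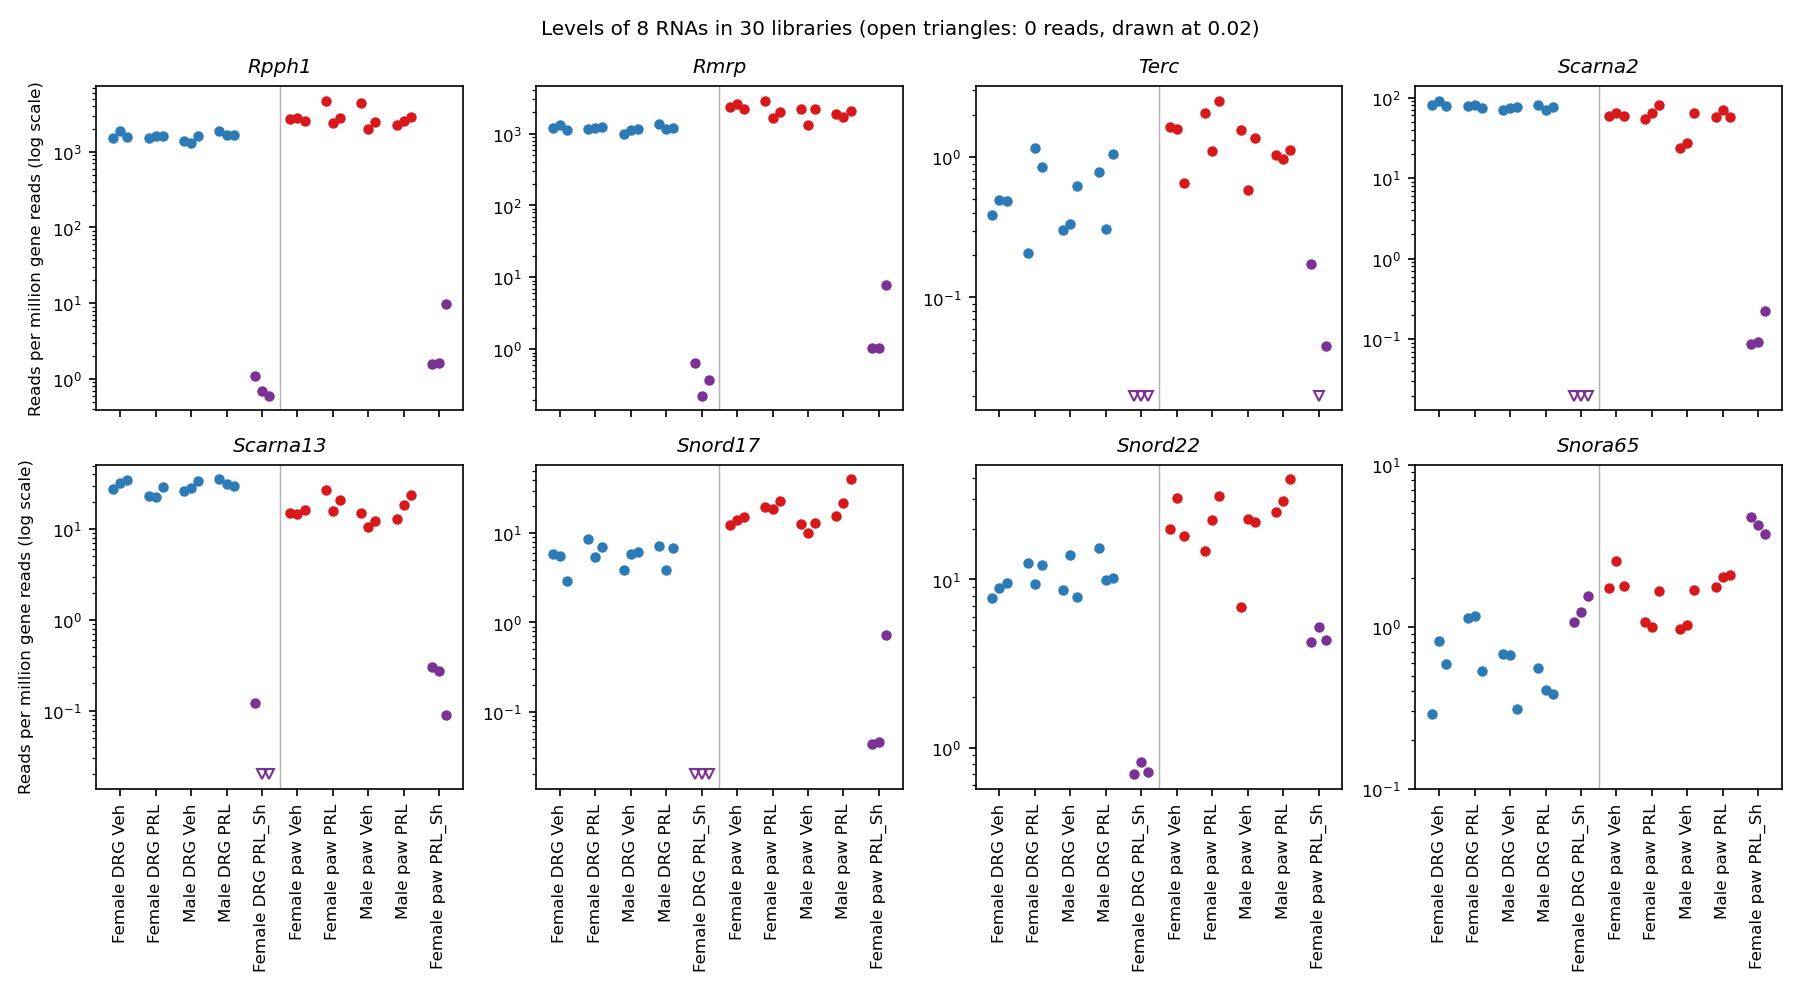
CPM (log scale) of 8 RNAs in each of 30 libraries, by group, with DRG in blue, paw in red and PRL_Sh in purple, 1 point per library, and open triangles at 0.02 for 0 reads. Rpph1 and Rmrp lie above 995 in every rRNA-depleted library and below 10 in every PRL_Sh library, while Snora65 in PRL_Sh paw (3.75 to 4.73) lies above all other libraries.

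The first comparison asks how much of this RNA class each kit recorded, in females of each tissue. Members took 0.294%, 0.305% and 0.311% of gene reads in the Female DRG PRL libraries and 0.00198%, 0.00200% and 0.00185% in Female DRG PRL_Sh. In paw they took 0.788%, 0.446% and 0.524% in PRL and 0.00693%, 0.00594% and 0.00750% in PRL_Sh. The groups did not overlap in either tissue, and the exact two-sided permutation p was 0.1 in each, the smallest that 3 against 3 allows. Although PRL_Sh libraries were deeper, they recorded fewer of the RNAs: 69 to 79 with at least 1 read in DRG against 93 to 96 in PRL, and 84 to 92 in paw against 101 to 104. At a fixed depth of 6.867 M gene reads the expected numbers were 50.4 ± 2.83 and 88.6 ± 3.38 in DRG (SD, n = 3 each, exact permutation p = 0.1). In paw they were 72.3 ± 4.20 and 98.5 ± 2.67 (exact permutation p = 0.1).

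**Figure D2:**
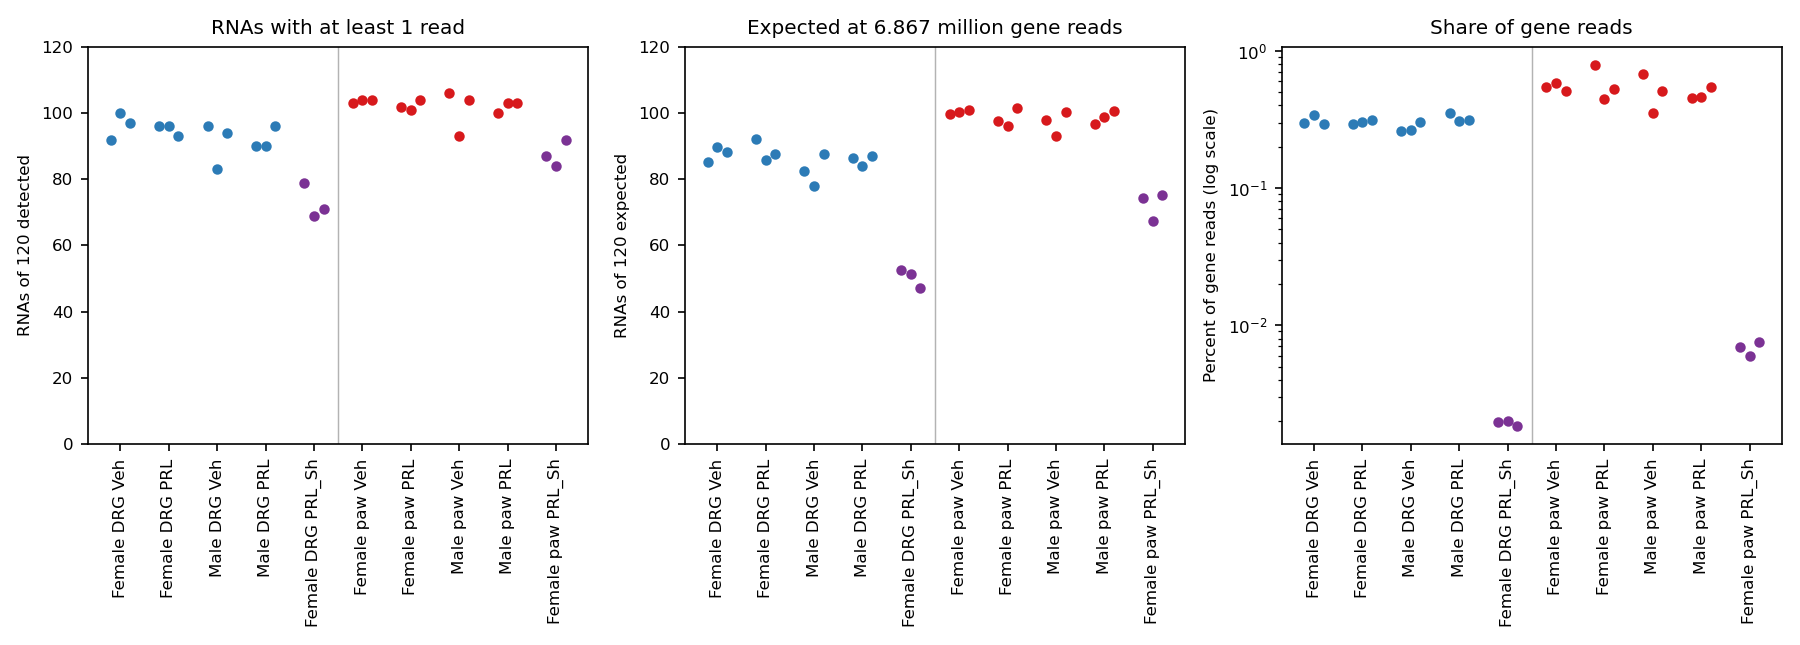
Number of the 120 RNAs with at least 1 read, number expected at 6.867 M gene reads, and percent of gene reads in the 120 RNAs (log scale), 1 point per library by group (DRG blue, paw red, PRL_Sh purple). PRL_Sh libraries lie below the PRL libraries of their tissue in all 3 panels, and rRNA-depleted paw libraries hold 0.354% to 0.788% of gene reads in these RNAs.

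Rpph1 and Rmrp, the most abundant of the RNAs, were far lower in PRL_Sh. Rpph1 stood at 1511, 1617 and 1607 CPM in Female DRG PRL and at 1.10, 0.683 and 0.603 CPM in PRL_Sh, a fold of 1988 by summed reads (log2 change −11.17, SE 0.18, edgeR quasi-likelihood adjusted p = 2.73e-08). In paw Rpph1 stood at 4712, 2413 and 2784 CPM in PRL and at 1.59, 1.61 and 9.77 in PRL_Sh (edgeR adjusted p = 0.000301). Rmrp stood at 1158, 1186 and 1242 CPM in DRG PRL and at 0.654, 0.228 and 0.377 in PRL_Sh. In paw Rmrp was at 2863, 1667 and 1970 CPM in PRL and at 1.03, 1.06 and 7.96 in PRL_Sh. PRL_Sh 3 was thus the highest PRL_Sh paw library for both RNAs, and far below every PRL library. Terc had 23 reads in DRG PRL and 0 in PRL_Sh, which is at least 18.5-fold lower by a limit of 3 reads over the 3 libraries.

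Of the 7 Cajal body RNAs with at least 10 reads, 6 were at least 10-fold lower in PRL_Sh in each tissue. Scarna2 was at 77.7, 82.0 and 73.9 CPM in DRG PRL, and PRL_Sh held 0 reads, which is at least 1900-fold lower. Scarna10, likewise at 0 reads in DRG PRL_Sh, was at least 1379-fold lower, and Scarna9 at least 113-fold lower. Scarna13 fell from 754 reads to 3, a ratio of 606 with an exact 95% counting interval of 207 to 2947. In paw Scarna2 was at 53.9, 64.9 and 82.0 CPM in PRL and at 0.0861, 0.0918 and 0.226 in PRL_Sh (log2 change −8.90, SE 0.33, edgeR adjusted p = 2.46e-05). Among the other long RNAs, Snord17 was at 8.68, 5.44 and 6.95 CPM in DRG PRL and at 0 reads in PRL_Sh, at least 169-fold lower. Rnu12 had 46 reads in DRG PRL and 0 in PRL_Sh, and 46 and 1 in paw.

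Some short RNAs, most of them inside an exon of their host, were higher in PRL_Sh paw. Snora65, whose host Rpl12 encodes a ribosomal protein, was at 1.07, 0.998 and 1.65 CPM in paw PRL and at 4.73, 4.22 and 3.75 in PRL_Sh (log2 change 1.75, SE 0.28, edgeR adjusted p = 0.00151). Snord12, in the noncoding host Zfas1, was at 0.537, 0.1995 and 0.485 CPM in paw PRL and at 2.37, 1.79 and 0.9499 in PRL_Sh (log2 change 2.02, SE 0.50, edgeR adjusted p = 0.0112). In both cases the paw groups did not overlap. Snord96a (log2 change 0.91, SE 0.27) and Snord104 (0.96, SE 0.27), a 70 nt RNA with no host on its strand, were also called higher in paw, with edgeR adjusted p of 0.0219 and 0.0201. Those calls did not hold in 7 and 5 of 12 alternatives, with adjusted p up to 0.125 for Snord96a and 0.114 for Snord104, among them the fit without Female paw PRL 1 and PRL_Sh 3. Snora61, an H/ACA RNA of Snhg12, was at 2.77, 3.09 and 2.62 CPM in paw PRL and at 3.49, 2.84 and 2.71 in PRL_Sh, so the groups overlapped. Snora74a had the highest mean level of the Snora RNAs tested in each tissue, and was far lower in PRL_Sh. It fell from 331 reads in DRG PRL to 3 in PRL_Sh, a ratio of 266. In paw it fell from 786 reads to 6 (log2 change −8.01, SE 0.49, edgeR adjusted p = 6.46e-05). Of the Snora RNAs with at least 10 reads, 21 of 26 in DRG and 23 of 29 in paw were lower in PRL_Sh. In each tissue 4 were at least 10-fold lower, and 15 and 16 in turn were within 2-fold.

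By the test across all genes, 27 of the 120 passed the filter on low counts in DRG and 21 were called, all lower in PRL_Sh, where 32.3% of all tested genes were called lower and 61.6% in either direction. In paw 58 passed and 37 were called, 33 lower and 4 higher, beside 29.0% lower, 29.4% higher and 58.5% in either direction over all genes. The median log2 change of the members that passed was −5.19 in DRG and −1.58 in paw, the same with RNAs at 0 reads set to their limit, against −0.0039 and 0.05 over all genes. RNAs that passed only through the PRL group had to differ, so these counts describe the RNAs and do not rank them against other genes.

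RNAs of 200 nt or more had the largest kit differences by median, while below that length the medians differed with tissue and gene model. Of the 83 RNAs with at least 10 reads over the female DRG PRL and PRL_Sh libraries together, 73 were lower in PRL_Sh and 25 at least 10-fold lower, and in paw it was 81 and 25 of 98. All 8 RNAs of 200 nt or more (Terc, Scarna2, Scarna10, Rpph1, Scarna13, Rmrp, Scarna6 and Snord17) were at least 10-fold lower in both tissues. Under 100 nt, 17 of 41 RNAs in DRG and 26 of 50 in paw were within 2-fold, with median PRL_Sh to PRL ratios of 0.414 and 0.558. From 100 nt to under 200 nt, 15 of 34 in DRG and 17 of 40 in paw were within 2-fold and 11 and 10 at least 10-fold lower, with median ratios of 0.405 and 0.274. Across RNAs, Spearman's rho between length and ratio was −0.30 over 83 RNAs in DRG and −0.36 over 98 in paw, and RNAs of 1 library are not independent. With RefSeq lengths, which put Scarna2 and Scarna10 under 100 nt, rho was −0.23 over 82 RNAs and −0.26 over 97. By those lengths the 6 RNAs of 200 nt or more were at least 10-fold lower in both tissues, and the median ratio was 0.467 in DRG and 0.491 in paw from 100 nt to under 200 nt and 0.342 and 0.469 under 100 nt. RNAs with short GENCODE models were also among those lost: under 100 nt, 6 of 41 in DRG and 7 of 50 in paw were at least 10-fold lower. Scarna9, whose length differs between gene models (70 nt in GENCODE), had 590 reads in paw PRL and 3 in PRL_Sh. That is a ratio of 419 (exact 95% counting interval 143 to 2038).

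**Figure D3:**
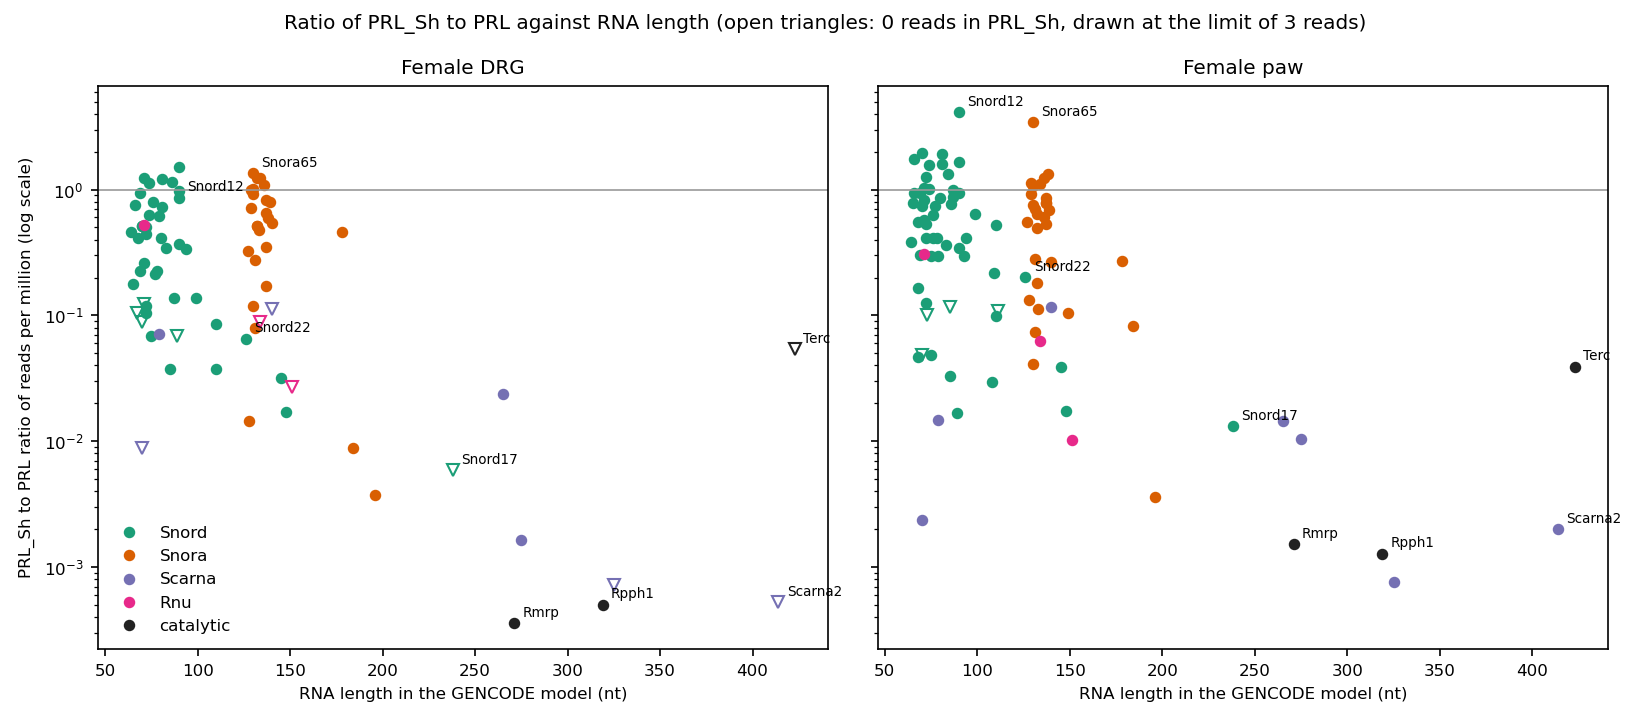
Ratio of PRL_Sh to PRL CPM (log scale) against RNA length in nt for female DRG (83 RNAs) and female paw (98 RNAs), coloured by class, with open triangles at the limit of 3 reads where PRL_Sh had none. Every RNA of 200 nt or more lies below 0.1, and shorter RNAs spread from far below to above 1, up to 4.15 for Snord12 in paw.

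Position in the host gene also went with the kit difference. The median ratio was 0.467 in DRG and 0.694 in paw for RNAs overlapping a host exon (38 and 44 RNAs), 0.155 and 0.309 for those only in introns (34 and 43), and 0.0715 and 0.0391 for the 11 with no host. The 6 RNAs above a ratio of 1 in both tissues, Snora16a, Snora61, Snora64, Snora65, Snord96a and Snord99, all lay within an exon of a host transcript. Reads of the host and of the RNA inside it cannot be told apart there. Of the 6, edgeR called only Snora65 and Snord96a higher, both in paw, and none in DRG. For Snora16a, Snora61, Snora64 and Snord99 the edgeR adjusted p in paw ran from 0.25 to 0.81. Snora16a, Snora61 and Snord99 also lie close together on chromosome 4, so the 6 are not separate cases. Other RNAs that overlapped a host exon were depleted: 7 of 38 in DRG and 6 of 44 in paw were at least 10-fold lower. Snord15b (145 nt) had ratios of 0.0316 and 0.0388 and Snord22 (126 nt) of 0.0654 and 0.203, in DRG and paw in turn. The hosts themselves were higher in PRL_Sh paw than in PRL by 1.65 times for Rpl12, where Snora65 was 3.43 times higher, and by 4.05 times for Zfas1, where Snord12 was 4.15 times higher. Snx5, host of Snord17, had a ratio of 0.938 beside 0.0131 for Snord17. Gas5, a noncoding host of many box C/D RNAs, had a ratio of 1.87 in paw beside 0.742 for Snord47.

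RNAs at least 10-fold lower in PRL_Sh had a median longest run of A of 4 bases (2 to 6) in both tissues, and those within 2-fold had 3 bases (1 to 6). Their median length was 145 nt in both tissues, against 90 nt in DRG and 87 nt in paw. Median GC content was 51.7% against 47.4% in DRG and 50.9% against 45.1% in paw.

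Messenger RNAs of the protein partners moved in both directions, beside 29.3% of all genes called higher and 32.3% lower in DRG, and 29.4% higher and 29.0% lower in paw. Of the RNase P and MRP proteins, 7 of 10 tested were higher in DRG PRL_Sh and 8 of 9 in paw and none was called lower, as with Pop5 (log2 change 1.33, SE 0.12, edgeR adjusted p = 0.000188 in paw). Of the box C/D and H/ACA core proteins, 4 of 8 were higher in paw PRL_Sh and none lower, led by Nop10 and Nhp2, and in DRG 3 were higher and Nop58 was lower. Tert, the protein partner of Terc, was lower in PRL_Sh in DRG (log2 change −1.97, SE 0.42, edgeR adjusted p = 0.00440) and in paw (−1.29, SE 0.24, adjusted p = 0.00333), and so was Trove2, which binds Y RNAs (−2.14, SE 0.13, adjusted p = 7.19e-06 in DRG). Among all 26 named host genes tested, 13 were higher and 3 lower in DRG PRL_Sh, and 18 higher and 1 lower in paw. Assembly factors gave 5 higher and 1 lower of 11 in DRG, and 3 and 2 in paw. Markers moved beside the kit in paw: 8 of 8 leukocyte markers were lower in PRL_Sh (0.0196% to 0.0201% of gene reads, against 0.0661% to 0.125% in PRL) and 6 of 9 muscle markers higher (1.90% to 3.38%, against 0.0479% to 0.990%). Also in paw, 5 of 5 glia markers were higher (0.0770% to 0.0864%, against 0.0358% to 0.0470%), 3 of 7 keratinocyte markers were higher and 1 lower, and 1 of 3 neuron markers was higher. In DRG, 4 of 6 keratinocyte markers were higher in PRL_Sh (0.00461% to 0.00486%, against 0.00222% to 0.00284%). Neuron markers there gave 5 of 9 higher and 1 lower (0.473% to 0.574%, against 0.325% to 0.375%). Leukocyte markers in DRG gave 3 of 6 lower (0.0140% to 0.0175%, against 0.0157% to 0.0211%), glia markers 1 of 6 lower and muscle markers 0 of 9 called. The part of these markers in the kit differences was not tested.

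The kit difference itself was compared between the tissues in a single fit of the 12 female libraries. Of 66 members that passed, edgeR called 12, where 38.6% of all genes were called. In all 12 the shift from PRL to PRL_Sh was higher in paw, as it was for 25.9% of all genes. Snord22, for example, was at 12.6, 9.46 and 12.2 CPM in DRG PRL and 0.695, 0.820 and 0.717 in DRG PRL_Sh, and at 14.9, 22.6 and 31.2 CPM in paw PRL and 4.26, 5.23 and 4.34 in paw PRL_Sh. PRL_Sh thus held 0.0654 of the PRL level of Snord22 in DRG and 0.203 in paw. Of the 81 RNAs with at least 10 reads in both tissues, 47 had the higher ratio in paw, and 21 were at least 10-fold lower in both. Over all genes tested in the fit, the median log2 difference, paw shift minus DRG shift, was 0.19 with TMM. The 47 of 81 alone thus does not set these RNAs apart from other genes.

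The second comparison sets DRG against paw in the 12 Veh libraries. In these bulk samples, fewer cells of a type and less RNA per cell cannot be told apart. Members took 0.293% ± 0.029 of gene reads in DRG and 0.529% ± 0.108 in paw (SD, n = 6 each, exact two-sided permutation p = 0.00216, the smallest possible, 0.0173 adjusted over 8 comparisons). At the fixed depth 85.2 ± 4.38 RNAs were expected in DRG and 98.7 ± 2.97 in paw (exact permutation p = 0.00216, adjusted 0.0173). The summed Snord level was 39.2 ± 4.47 CPM in DRG and 96.1 ± 17.1 in paw, and the summed Snora level 29.3 ± 2.21 and 70.6 ± 8.47 (exact permutation p = 0.00216 for each). The summed Scarna level was 176 ± 11.3 CPM in DRG and 171 ± 64.2 in paw (exact permutation p = 0.823). That paw mean rests on Male paw Veh 1 and 2: without them the paw libraries ran from 196 to 224 CPM and the DRG libraries from 158 to 190, so the tissues did not overlap and paw was higher (212 ± 12.4 CPM in paw, n = 4, against n = 6 in DRG, exact permutation p = 0.00476, the smallest possible). Without them the Snord (105 ± 8.50 CPM) and Snora (74.1 ± 8.29) sums and the share of gene reads (0.535% ± 0.033) in paw also stayed above DRG (exact permutation p = 0.00476 for each). Set against all reads in the file, not gene reads, the share was 0.0796% ± 0.0077 in DRG and 0.124% ± 0.041 in paw (exact permutation p = 0.0173, adjusted 0.139), and without those 2 libraries the paw share was 0.131% ± 0.0052 (exact permutation p = 0.00476).

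Of the 120 RNAs, 54 passed the filter and 49 were called by edgeR, where 85.8% of all genes were called. Higher in paw were 47 members (43.1% of all genes) and higher in DRG were 2 (42.7%). The median log2 change, DRG minus paw, was −1.53 for the members that passed and −0.01 for all genes tested. RNAs that passed only through the paw libraries had to be higher there. These counts and this median thus describe the RNAs and do not rank them against other genes. Among the abundant RNAs, Rmrp had a change of −0.92 (SE 0.10, edgeR adjusted p = 2.17e-06) and Rpph1 of −0.90 (SE 0.15, adjusted p = 9.10e-05). Snord17, a long box C/D RNA, was at 5.92, 5.49 and 2.93 CPM in Female DRG Veh, 3.83, 5.90 and 6.12 in Male DRG Veh, 12.3, 14.1 and 15.3 in Female paw Veh and 12.6, 10.0 and 13.2 in Male paw Veh. All 6 paw libraries thus lay above all 6 DRG libraries. Snord96a had the change −2.36 (SE 0.41, edgeR adjusted p = 0.000118) and Terc −1.55 (SE 0.33, adjusted p = 0.000675).

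Scarna13 and Scarna2 were the members called higher in DRG. Scarna13 was at 27.6, 31.9 and 35.2 CPM in Female DRG Veh, 26.6, 28.6 and 34.1 in Male DRG Veh, 15.1, 14.5 and 16.1 in Female paw Veh and 15.2, 10.6 and 12.2 in Male paw Veh. The tissues did not overlap (log2 change 1.10, SE 0.10, edgeR adjusted p = 2.83e-07). Scarna2 ran from 69.5 to 91.4 CPM in DRG Veh and from 23.98 to 64.3 in paw Veh, where Male paw Veh 1 and 2 gave the lowest values, 23.98 and 26.9. Its log2 change was 0.67 (SE 0.19, edgeR adjusted p = 0.00476) with those 2 libraries. Without them, in a fit that leaves 1 Male paw Veh library, it was 0.31.

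Snord64, a box C/D RNA of an imprinted cluster on chromosome 7, was singled out after its values were seen. It had 30 reads in the 12 rRNA-depleted DRG libraries and 2 in the 12 paw libraries, a DRG to paw ratio of 15.9 with an exact 95% counting interval of 4.05 to 138. By group, the DRG libraries held 12 reads in Female PRL and 6 in each of Female Veh, Male PRL and Male Veh, while the paw groups held 1, 1, 0 and 0 in the same order. PRL_Sh held 0 reads in either tissue. It did not pass the filter, so it has no test.

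**Figure D4:**
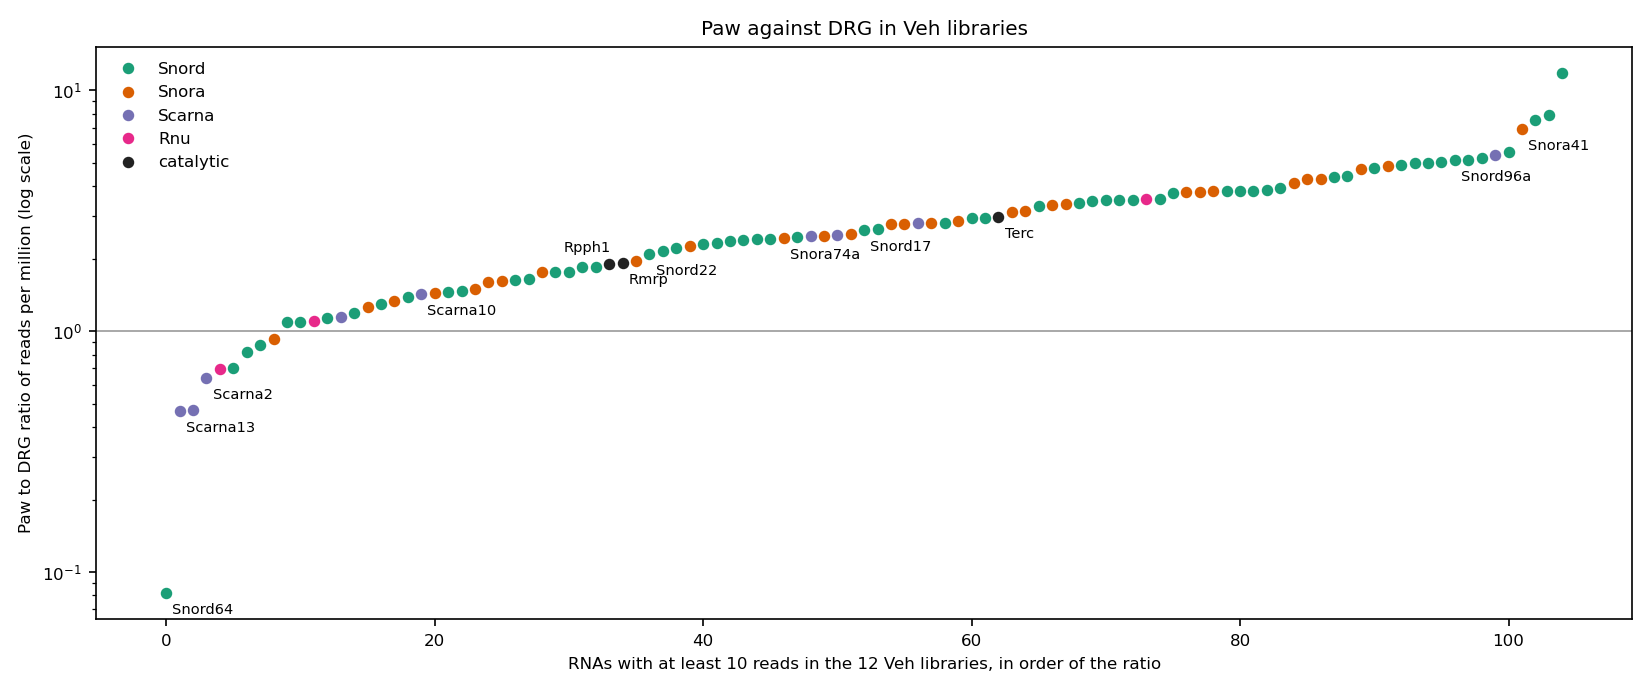
Paw to DRG ratio of CPM (log scale) for the 105 RNAs with at least 10 reads in the 12 Veh libraries, in order of the ratio, coloured by class. The ratio is above 1 for 96 RNAs and below 1 for 9, with Snord64, Scarna13 and Scarna2 named at the low end.

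Host genes moved in the same direction in most pairs. Over 89 pairs of an RNA and its counted host (66 hosts), 83 of the RNAs and 75 of the hosts were higher in Veh paw, and 79 pairs were on the same side. Since most RNAs and most hosts were higher in paw, most pairs would be on the same side without any link between RNA and host. The median paw to DRG ratio was 2.82 for the RNAs and 2.12 for the hosts, and Spearman's rho between them was 0.51 across the 89 pairs, which share hosts and libraries. Where an RNA overlaps a host exon, reads of the host and of the RNA cannot be told apart. Snord96a was 5.15 times higher in paw beside 6.08 times for Gnb2l1 (Rack1). Scarna13, lower in paw, had a ratio of 0.465 beside 0.756 for Snhg10. In level, as opposed to ratio, rho between RNA and host CPM was 0.03 in Veh paw and 0.03 in Veh DRG.

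In the listed protein partners, read beside 43.1% of all genes higher in paw and 42.7% higher in DRG, 7 of 8 box C/D and H/ACA core mRNAs tested were higher in Veh paw and 1 in DRG. Nhp2, an H/ACA core protein, had a log2 change of −2.26 (SE 0.08, edgeR adjusted p = 9.15e-12) and Nop58, of the box C/D particle, −1.45 (SE 0.10, adjusted p = 1.01e-08), whereas Nop10 was higher in DRG (0.60, SE 0.08, adjusted p = 7.36e-06). RNase P and MRP proteins were split, with 4 of 10 higher in DRG and 2 in paw, and snoRNP assembly factors gave 5 of 11 in each direction. Of the named snoRNA hosts, 21 of 26 were higher in paw and 5 in DRG, the latter including Snhg11 (log2 change 6.40, SE 0.10, edgeR adjusted p = 2.44e-14). For Cajal body and telomerase proteins 1 of 7 was higher in DRG (Coil, the Cajal body marker coilin) and 2 in paw, while Tert had a log2 change of −0.02 (SE 0.31, edgeR adjusted p = 0.961).

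The tissue difference was also present in the other arms. Between the PRL libraries, 95 of 105 RNAs had a higher CPM in paw, with a median ratio of 2.29. Between the PRL_Sh libraries it was 69 of 72, with a median of 3.38, and edgeR called 31 of the 37 members that passed, all 31 higher in paw (80.2% of all genes were called, 39.9% as higher in paw). Here too, RNAs that passed only through paw had to be higher there. Snord22, a box C/D RNA of Snhg1, was at 0.695, 0.820 and 0.717 CPM in DRG PRL_Sh and at 4.26, 5.23 and 4.34 in paw PRL_Sh (log2 change −2.63, SE 0.22, edgeR adjusted p = 1.38e-05). Rpph1 and Rmrp were among the calls, with paw libraries at 1.59, 1.61 and 9.77 CPM for Rpph1 and the DRG libraries at 0.603 to 1.10, so the groups did not overlap. Their adjusted p rose to 0.0715 for Rpph1 and 0.0633 for Rmrp at most, when DRG PRL_Sh 2 or 3 was left out. Without Female paw PRL_Sh 3 the log2 change was −1.02 for Rpph1 and −1.31 for Rmrp, in place of −2.43 and −2.97, with edgeR adjusted p of 0.0260 and 0.0282.

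The third comparison sets PRL against Veh. In DRG no member passed the test. Of 23 members that passed, edgeR called 0 in females, 0 in males, 0 in the mean over sexes, 0 in the difference between sexes and 0 between female and male Veh, with 4, 4, 3, 3 and 3 at an unadjusted p under 0.05. Over all genes 0.653%, 0.517%, 3.60%, 0% and 0.0544% were called. In the same order, 1766, 2189, 3168, 537 and 1005 of the 14705 genes tested had an unadjusted p under 0.05. Rpph1 in male DRG was at 1367, 1297 and 1601 CPM in Veh and 1854, 1651 and 1670 in PRL. Those groups did not overlap (log2 change 0.27, SE 0.09, edgeR adjusted p = 0.179), and DESeq2 gave an adjusted p of 0.0405, its only call among members in the PRL comparisons of DRG. In female DRG Rpph1 was at 1527, 1858 and 1550 CPM in Veh and 1511, 1617 and 1607 in PRL, so the groups overlapped. The members with the smallest p were Snora23 in females (log2 change 0.89, SE 0.36, edgeR adjusted p = 0.348) and Snord15b in the mean over sexes (0.45, SE 0.17, adjusted p = 0.157). Snord89 had the smallest p in the difference between sexes (2.28, SE 0.75, adjusted p = 0.993) and Scarna2 between female and male Veh (0.17, SE 0.07, adjusted p = 0.704). The share of gene reads was 0.324% ± 0.025 in male DRG PRL and 0.275% ± 0.022 in Veh (SD, n = 3 each, exact permutation p = 0.1).

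In paw 58 members passed. In males edgeR called 3, all higher in PRL, where 12.3% of all genes were called higher and 22.4% in either direction. In females it called 0 (7.55% of all genes were called). There 4 of 58 members and 3034 of the 14721 genes tested had an unadjusted p under 0.05. The mean over sexes gave 4, all higher (14.9% higher and 24.9% in either direction over all genes). The difference between the sexes was called for 0 members (0.00679% of all genes were called), and so was female against male Veh (0.109%). At an unadjusted p under 0.05 were 8 and 6 of 58 members in turn, beside 1924 and 1193 of the 14721 genes tested. DESeq2 called 4 in males, 4 in the mean and 0 in the other paw comparisons. The median log2 change was 0.22 in males and −0.16 in females for the members that passed, against 0.02 and −0.0077 for all genes.

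Rnu12, the U12 RNA of the minor spliceosome, had the smallest p in males. It was at 0.965, 0.583 and 0.882 CPM in Male paw Veh and at 2.07, 2.55 and 4.24 in PRL, from 28 and 100 reads (log2 change 1.82, SE 0.36, edgeR adjusted p = 0.00482). In females it was at 1.46, 1.93 and 1.31 CPM in Veh and at 1.25, 2.09 and 1.07 in PRL. The male groups did not overlap and the female groups did, and the difference between the sexes had an unadjusted p of 0.00290 in edgeR and an adjusted p of 0.205. Snord17 was at 12.6, 10.0 and 13.2 CPM in Male paw Veh and 15.4, 21.8 and 40.2 in PRL (log2 change 1.12, SE 0.27, edgeR adjusted p = 0.0118). In females Snord17 was at 12.3, 14.1 and 15.3 CPM in Veh and 19.9, 18.6 and 22.9 in PRL, also without overlap (0.55, SE 0.26, adjusted p = 0.269).

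Snord15a, a box C/D RNA from an intron of Rps3, was at 2.67, 4.22 and 6.09 CPM in Male paw Veh and 6.68, 8.69 and 11.5 in PRL (log2 change 1.07, SE 0.31, edgeR adjusted p = 0.0303). Scarna13 was called only in the mean over sexes (0.52, SE 0.15, adjusted p = 0.0299), with 15.1, 14.5 and 16.1 CPM in Female paw Veh, 27.3, 15.8 and 21.1 in Female paw PRL, 15.2, 10.6 and 12.2 in Male paw Veh and 12.8, 18.3 and 24.02 in Male paw PRL. In that mean Snord17 had a log2 change of 0.84 (SE 0.19, edgeR adjusted p = 0.00729), Rnu12 of 0.86 (SE 0.26, adjusted p = 0.0286) and Snord15a of 0.67 (SE 0.22, adjusted p = 0.0437). Rpph1 and Rmrp overlapped between Veh and PRL in both sexes.

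The male call of Snord15a was lost without Male paw PRL 2, Male paw PRL 3, Male paw Veh 1 or Male paw Veh 2, and the calls of Rnu12, Scarna13 and Snord15a in the mean over sexes were lost in 8, 8 and 11 of 18 alternatives. No paw call was kept without Female paw PRL 1 and Male paw Veh 1 and 2, a fit that leaves 1 Male Veh library and assumes that it varies like the other groups. The share of all genes called in that fit is not given here, so the lost calls are no result about these RNAs. Without those libraries the male log2 changes were 1.76 for Rnu12, 1.00 for Snord17 and 0.58 for Snord15a. In the mean over sexes the changes were 0.79 for Snord17, 0.89 for Rnu12, 0.45 for Scarna13 and 0.52 for Snord15a. Scarna10 was low in the same libraries, at 39.1 CPM in Female paw PRL 1 and 33.0 and 28.4 in Male paw Veh 1 and 2, beside 75.1 to 118 in the other 9 rRNA-depleted paw libraries.

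**Figure D5:**
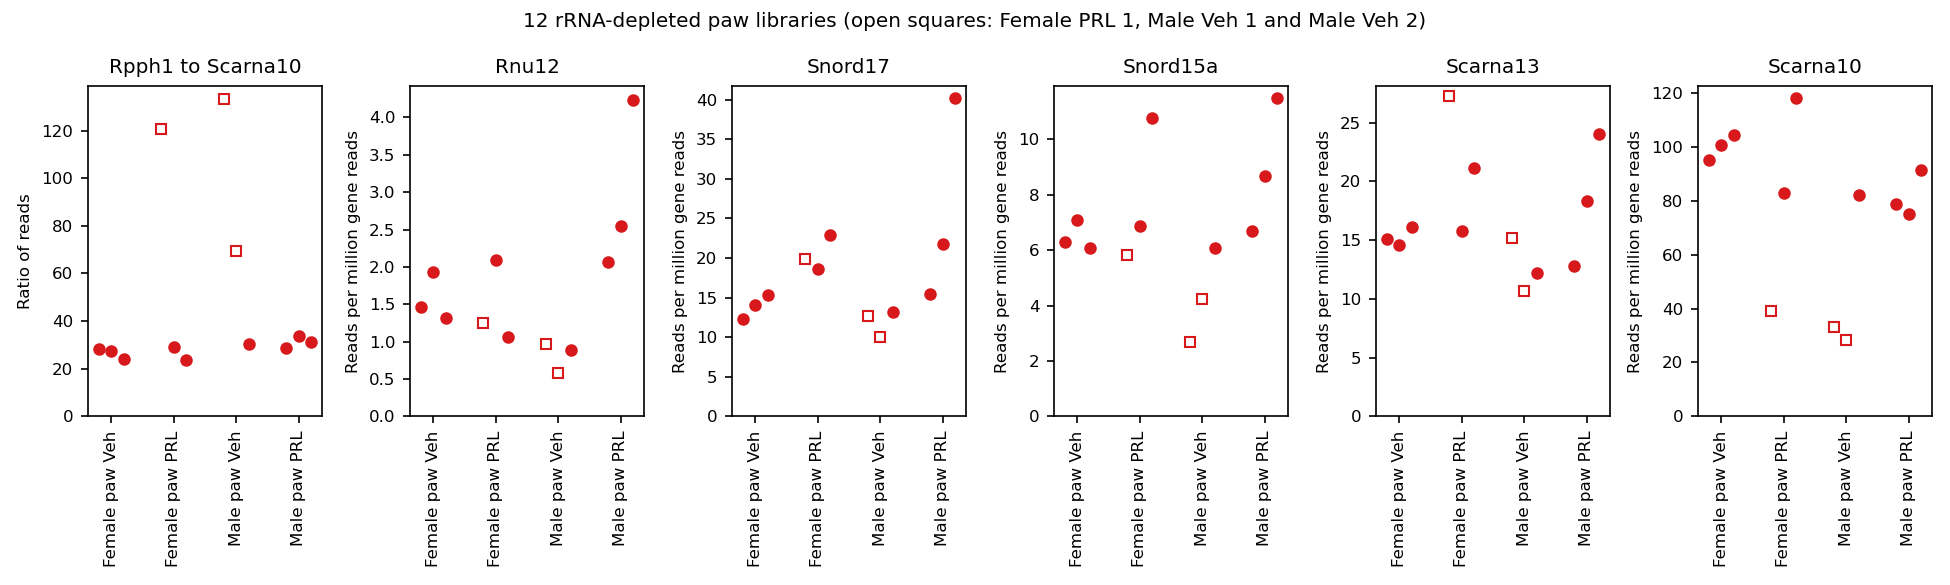
Ratio of Rpph1 to Scarna10 reads, and CPM of Rnu12, Snord17, Snord15a, Scarna13 and Scarna10, in the 12 rRNA-depleted paw libraries by group, 1 point per library, with open squares for Female paw PRL 1 and Male paw Veh 1 and 2. The open squares have ratios of 69.3 to 133 against 23.5 to 33.7 in the filled points, and Male PRL lies above Male Veh for Rnu12, Snord17 and Snord15a.

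Cell markers moved with PRL in paw. In the mean over sexes 8 of 8 leukocyte markers were higher. Their summed share of gene reads was 0.0268% to 0.0352% in Female paw Veh, 0.0661% to 0.125% in Female paw PRL, 0.0349% to 0.0527% in Male paw Veh and 0.0842% to 0.101% in Male paw PRL. No leukocyte marker was at 0 on average, and the lowest, Cd3e, averaged 0.376 CPM in Veh and 2.23 in PRL. Of 7 keratinocyte markers 2 were lower (Krt5 and Dsg1a) and of 9 muscle markers 0 were called. Of 4 neuron markers 2 were lower, Pou4f1 (log2 change −0.85, edgeR adjusted p = 0.0224) and Prph (−0.85, adjusted p = 0.0318), with a summed share of 0.000765% to 0.00140% in Veh and 0.000466% to 0.000979% in PRL, and of 5 glia markers 0 were called. The part of these markers in the Rnu12, Snord17, Snord15a and Scarna13 values was not tested.

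For the protein partners the counts in the mean over sexes in paw stand beside 24.9% of all genes called in either direction. Of 8 box C/D and H/ACA core mRNAs, Nhp2 was lower (log2 change −0.32, SE 0.06, edgeR adjusted p = 0.00355) and 7 were not called. Of 11 snoRNP assembly factors, Naf1 was lower and Tcof1 higher, and of 8 Y RNA binding and quality control genes Trove2 was lower (−0.33, SE 0.11, edgeR adjusted p = 0.0412). Of 26 named host genes tested 3 were lower and 0 higher, among them Snhg11 (−1.001, SE 0.13, edgeR adjusted p = 0.000186) and Eef2 (−0.29, SE 0.08, adjusted p = 0.0218). Of 9 RNase P and MRP proteins and 7 Cajal body and telomerase proteins 0 were called. In DRG 0 members of these lists were called in the mean over sexes.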

How the data were processed

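The deposited values are raw read counts per gene, made by the authors, with 22609 genes and 5 summary lines per library. The submitters' processing notes name bcl2fastq, TopHat2, HTSeq and mm9. No tool version, counting mode or use of strand is given in the sources used here. Reads mapped to more than 1 place stand in a summary line (31.7% to 55.5% of reads) and are in no gene, which can lower RNAs with near-identical copies. Reads labelled ambiguous stand in another such line. In DRG they were 0.0688% to 0.0758% of reads with rRNA removal and 0.195% to 0.203% in PRL_Sh. In paw they were 0.0217% to 0.0494% and 0.104% to 0.113%. Their part in the ratios of RNAs that overlap a host exon was not tested. Summary lines were left out. CPM is counts per 1 M gene reads, without TMM.

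The members and lists were chosen with earlier results of these data known. Counts were tested with edgeR 4.0.16 (R 4.3.3): filterByExpr defaults, TMM, quasi-likelihood test, Benjamini and Hochberg adjustment over all genes tested, threshold 0.05. PRL_Sh was compared with PRL in fits of 6 libraries per tissue, or 12 for the difference between tissues, PRL with Veh in the 12 rRNA-depleted libraries of a tissue, and DRG with paw in the 12 Veh or 6 PRL_Sh libraries. Detection and shares were compared by exact two-sided permutation over libraries, with 8 comparisons per measure. Expected detection was computed by hypergeometric thinning to 6.867 M gene reads. A count of 0 was set to 3 reads over the arm's summed gene reads for bounds. Intervals and limits cover counting error only. Lengths, hosts and sequences came from GENCODE vM21 (119 of 120 matched). The code was tested on simulated counts.

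Genes to name were drawn from Rmrp, Rpph1 and Terc, the 4 members of each class with the highest mean CPM, members past the threshold (up to 10 per direction, or the smallest p), up to 4 genes per list and host genes of named members. Not every gene that met this rule is named. Snord64 and ratios that illustrate a split were chosen after their values were seen. Alternatives were DESeq2 1.42.0, RLE scaling, no TMM, no filter, the replicate number as a block, fits to other sets of libraries and leaving out each library in turn. Leaving out the libraries that stood apart and RefSeq lengths were added after the data were seen. 1 host gene called lower in the mean over sexes in paw is not reported here by name.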

Additional observations from a re-analysis of the deposited data

Results flagged for a closer look

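The shift from PRL to PRL_Sh differed between the tissues for 12 of 66 members tested in a single edgeR fit of the 12 female libraries, where 38.6% of all genes were called. All 12 of the 66 were called with a higher shift in paw, beside 25.9% of all genes tested called higher and 12.7% called lower. As log2 differences, paw shift minus DRG shift, the values were 1.89 for Snord22, 4.61 for Scarna2, 2.06 for Snora68, 2.79 for Snord89, 1.62 for Snora65 and 2.19 for Snord104. The others were 2.53 for Snord12, 3.13 for Snora78, 2.88 for Snora23, 2.28 for Snord16a, 2.73 for Scarna13 and 1.53 for Snora70. DRG PRL_Sh held 1 read of Snora23, 2 of Snora78 and 3 each of Scarna13 and Snord16a, so those values rest on few reads. Since DRG PRL_Sh held 0 reads of Scarna2, its fitted value of 4.61 is neither a measured difference nor a bound. Over all genes the median difference was 0.19 with TMM and −0.02 with RLE scaling, and Snora70 and Snord16a were not called with RLE. Snora68, for example, was at 0.0797 of its PRL level in DRG PRL_Sh and at 0.279 in paw. Calls for Snord22, Scarna2, Snora68 and Snord89 were kept in every alternative run. In paw, leukocyte markers were lower and muscle markers higher in PRL_Sh, and their part in these differences was not tested.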

How the results depend on the processing

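Counts of members called stayed within 1.5 times the reported count under DESeq2, RLE scaling, no TMM, no filter and the added left-out libraries, with these exceptions. Without the filter 45 members were called between kits in DRG (21 reported). DESeq2 called 1 member in male DRG (0 reported). In male paw, a fit of only the groups compared called 5 (3 reported). Without Female paw PRL 1 and Male paw Veh 1 and 2, a fit with 1 Male paw Veh library left, no call was kept in male paw or in the mean over sexes in paw (3 and 4 reported). The cause was not tested. Without Male paw Veh 1 and 2 the DRG to paw ratio of the summed Scarna level in Veh turned from 1.03 to 0.831. Leaving out each library in turn gave 7 to 13 for the difference of the kit shift, 0 to 1 in female paw, 2 to 7 in male paw and 1 to 4 in the mean over sexes in paw. The lowest count for the kit shift came without Female DRG PRL 3, the highest in male paw without Male paw Veh 3, and counts of 1 in the mean over sexes came without Male paw PRL 3, Female paw Veh 1 or Male paw Veh 2. It gave 21 to 26 and 31 to 39 between kits in DRG and paw, and 49 to 53 and 29 to 33 between tissues in Veh and PRL_Sh. Calls kept in every alternative numbered 20 of 21 and 28 of 37 between kits in DRG and paw, 4 of 12 for the kit shift, 46 of 49 and 25 of 31 between tissues in Veh and PRL_Sh, 0 of 3 in male paw and 0 of 4 in the mean, and 0 reversed.

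Same-numbered libraries did not deviate together (not every pair's correlation was over 0.1, and not each library correlated best with its own number), so the numbers were not taken to pair libraries. With the replicate block the calls were 20 and 31 between kits in DRG and paw, 9 for the kit shift, 49 and 29 between tissues in Veh and PRL_Sh, 0 in each DRG comparison of PRL, 0 in female paw, 3 in male paw and 3 in the mean over sexes. Depth limits RNAs under the filter, which were described by summed reads with no test.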
